A study of Mus musculus with 28 samples.

Results

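Type I interferon response genes are the genes that cells switch on after interferon alpha or beta binds its receptor. The set described here holds 40 of them, taken by gene symbol, and all 40 were listed among the 22116 named genes of the liver table and the 21797 of the kidney table. Messenger RNA was measured in liver and kidney of male C57BL/KsJ db/db mice, which lack a working leptin receptor and become obese and diabetic. Treatment began at 8 weeks of age and ran for 8 weeks. In the combined group, mice ran high-intensity intervals on a treadmill (HIIT) and also received semaglutide, a drug that activates the GLP-1 receptor for a long time after injection. Other mice received semaglutide alone or HIIT alone, and sedentary control mice neither. For semaglutide, sample titles state 0.05 mg/kg and the protocol 30 nmol/kg daily, and these amounts differ. They do not say whether the control and HIIT mice were injected with vehicle. All 4 groups carry the db/db mutation, so no healthy animal stands beside them. Each group had 3 liver libraries and 4 kidney libraries.

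Interferon alpha and beta bind a receptor made of IFNAR1 and IFNAR2, whose kinases JAK1 and TYK2 activate STAT2. With IRF9 it forms part of a complex that binds the interferon-stimulated response element (ISRE) in the promoters of its targets. The products sense foreign RNA and DNA, degrade it, block viral entry and budding, or tag proteins with the ubiquitin-like modifier ISG15. A low level of this response persists in healthy tissue without infection.

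Because the ISRE is the element through which these genes are known to be read, promoter stretches are shown first. They were picked among members that hold an ISRE-like match, from those with the smallest p in liver for semaglutide against control. The sequences are from RefSeq on the GRCm38.p6 build, in windows of 300 bases that run from 250 bases before to 50 bases after each annotated transcript start, and 29 of the 40 members had at least 1 window. An ISRE-like match was taken as GAAA, any 2 bases, then GAAA, on either strand, with overlapping matches counted separately. A match was present in 14 of the 29 members (48.3%), against 3.99% of 27025 genes with a window and 3.65% of the 8158 genes both tested in liver and present there. A search for the interferon gamma element, TTC, any 3 bases, then GAA, found 6 of the 29 members, against 9.55% of all genes. Capitals mark the ISRE-like matches, including overlapping ones, in the 4 stretches that follow, each written 5′ to 3′ on the strand of its gene.
Apol9b: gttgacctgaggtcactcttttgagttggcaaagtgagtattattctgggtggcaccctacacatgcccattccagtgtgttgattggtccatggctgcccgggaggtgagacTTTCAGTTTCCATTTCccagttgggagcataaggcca
Ifih1: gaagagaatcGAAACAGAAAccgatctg
Isg15: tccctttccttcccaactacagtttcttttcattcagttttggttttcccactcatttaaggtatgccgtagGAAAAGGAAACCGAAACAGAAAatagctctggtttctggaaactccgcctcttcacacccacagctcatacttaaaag
Stat2: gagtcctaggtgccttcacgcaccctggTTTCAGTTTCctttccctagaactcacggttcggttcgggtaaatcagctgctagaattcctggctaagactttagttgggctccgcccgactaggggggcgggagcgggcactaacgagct

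The Apol9b stretch lies at chr15:77728922-77729071 on the plus strand and covers the last 150 bases before the transcript start. Its capitals hold 2 overlapping matches on the opposite strand. The 28 bases of Ifih1 lie at chr2:62646206-62646233 on the minus strand, from base 23 to base 50 of the transcript. The Isg15 stretch, chr4:156200819-156200968 on the minus strand, holds 3 overlapping matches in the 150 bases before the start. In Stat2 the stretch at chr10:128270248-128270397 on the plus strand runs from base -250 to base -101 and holds 1 match. Apol9a, the neighbour and near copy of Apol9b, has the same run: the windows of the pair, shifted by 68 bases, matched at all 232 bases that align, with 0 differences. Of the members shown, Apol9b and Ifih1 were called lower with semaglutide alone in liver, and Isg15 and Stat2 were not. Among the other called members, no match was found in the windows of Mov10, and Trim14 and Dhx58 were not in the promoter table. Of the 28 matches in members, counted in every window, 25 began upstream of the start. A match is a description of the letters in a window and shows neither binding nor a cause.

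**Figure D1:**
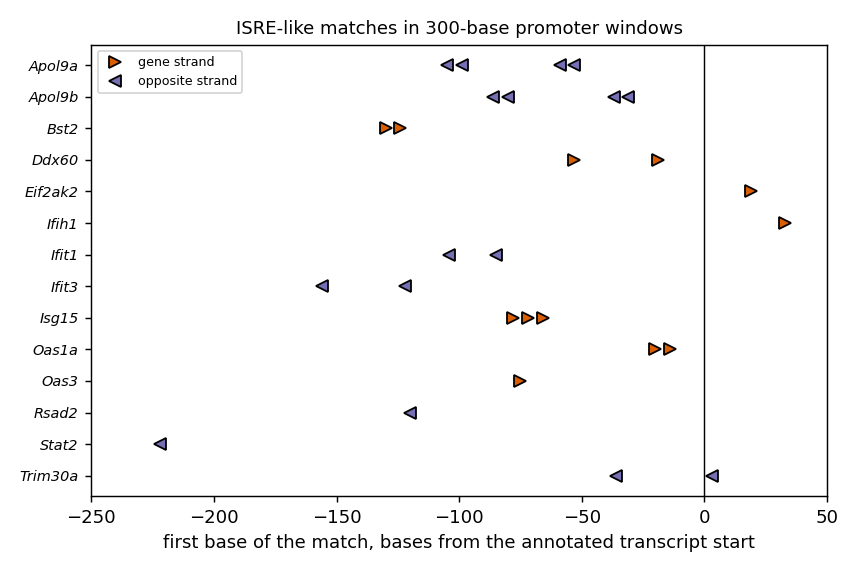
Position of each ISRE-like match (triangle, first base of the match) relative to the annotated transcript start at 0, for the 14 members with a match; the horizontal axis is in bases and the triangle points along the strand of the match. Of the 28 matches, 25 lie upstream of the start, and those of Ifih1, Eif2ak2 and Trim30a include a match after it.

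Values are FPKM, in which mapped fragments are divided by transcript length and by the library's total. Without read counts, depth is unknown. Differences between groups are on the log2(FPKM + 1) scale, the number after ± is the standard error, and the change of weakly expressed genes is understated. limma tested 10348 genes in liver, those that reached 1 FPKM in 3 or more libraries, and 11551 in kidney, where 4 or more were required, with p-values adjusted over all of them by the Benjamini-Hochberg method and a threshold of 0.05. In liver 31 members were tested. Ifit2, Oas1a, Oas2, Oas3, Rsad2, Ifi44, Cmpk2, Mx1 and Ddx60 were too low, at 0.0205 to 1.58 FPKM. In kidney 28 were tested, and Zbp1, Dhx58, Oas1a, Oas2, Oas3, Trim14, Herc6, Mx1, Mx2, Apol9a, Apol9b and Ddx60 were left out. No label says that replicate libraries came from different animals, and the p-values cover the spread among these libraries alone, which could be technical. In bulk tissue, fewer cells of a type and less RNA per cell cannot be told apart.

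Some libraries stood apart from the rest of their tissue. The summed level of 12 macrophage markers was 936 FPKM in liver control 3 and 459 in liver semaglutide 2, against 66.9 to 161 FPKM in the other 10 liver libraries. Neutrophil markers (7 genes) summed to 343 FPKM in liver control 3, against 0.586 to 14.0 elsewhere in liver. Skeletal muscle markers (6 genes) reached 9880 FPKM in liver semaglutide 2, against at most 1.85 in the others. That library also held 1670 FPKM of 6 adipocyte markers and 342 FPKM of 6 B or plasma cell markers, against at most 54.3 and 2.85 elsewhere in liver. Acute phase genes (17 genes), which hepatocytes make during inflammation, summed to 65300 FPKM in control 2 and 129000 in control 3, against 8680 to 18800 FPKM in the other 10 liver libraries. In kidney control 1, macrophage markers summed to 3610 FPKM, against 30.2 to 115 in the other 15 libraries. B or plasma cell markers summed there to 1440 FPKM against at most 4.78, and neutrophil markers to 243 FPKM against at most 5.53. Markers of T or NK cells (7 genes) were at 29.2 FPKM against at most 2.42, and acute phase genes at 2050 FPKM against at most 239. Hepatocyte markers summed to 19000 to 44400 FPKM in liver and 325 to 977 in kidney. In liver the lowest sums were 19000 FPKM in control 3, 20800 in semaglutide 2 and 24400 in control 2, against at least 36800 elsewhere. Tubule markers summed to 1330 to 2650 FPKM in kidney and at most 1.0 in liver. Both lists followed the tissue labels. How far these cell types and this inflammation enter the results was not tested. Where results are given without the libraries that stand apart, these are liver control 3, liver semaglutide 2 and kidney control 1, and liver control 2 stays in the fit. Counts of called members with libraries left out are given without the share of all genes called in the same fit. A change in such a count cannot be read as particular to the members.

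In liver, 6 of the 31 tested members fell with semaglutide alone and 0 rose. The largest drops were those of Apol9b and Apol9a, apolipoprotein L family genes, with means of 11.1 FPKM for Apol9b and 4.76 for Apol9a, against 44.8 and 20.4 FPKM in controls. The others were Trim14, Dhx58 and Ifih1, which act in the sensing of viral RNA, and the RNA helicase gene Mov10. Over all genes 0.715% were called in this comparison and 0.464% were called lower. Of the 31 members 26 lay below control, with a median difference of -0.40, while 36.2% of all genes lay below control, with a median of 0.09. At an unadjusted p under 0.05 there were 15 members, all lower, against 15.3% of all genes in either direction. Without liver control 3 and liver semaglutide 2 the count was 5, of which Apol9b, Ifih1 and Trim14 were among the 6 and Herc6 and Xaf1 were not. The members' median was then -0.389, with a median of -0.04 and 57% below control for all genes. In 17 of the 31 members every semaglutide library lay below every control library, against 6.77% of all genes tested.

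Apol9b had 15.1, 8.95 and 9.19 FPKM with semaglutide, against 59.9, 43.9 and 30.8 FPKM in controls. Every semaglutide library was below every control library, and below the 29.0 to 45.3 FPKM of the combined group and the 35.3 to 39.9 FPKM of the HIIT group. The difference from control was -1.91 ± 0.26 (limma, adjusted p = 0.0214). Its near copy Apol9a had 6.17, 4.02 and 4.09 FPKM with semaglutide, against 26.7, 18.1 and 16.4 FPKM in controls. Here too the groups did not overlap, and the difference was -1.88 ± 0.30 (adjusted p = 0.0265 by limma). The sources used here do not say how fragments were divided between these copies, so they may not be separate measurements.

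Ifih1 encodes MDA5, a receptor for long double-stranded RNA in the cytosol. It had 2.52, 2.69 and 2.37 FPKM with semaglutide, against 4.22, 4.54 and 4.93 FPKM in controls, a difference of -0.66 ± 0.11 (limma, adjusted p = 0.0265). Dhx58 encodes LGP2, which modulates signalling by MDA5 and by RIG-I. Its levels were 1.51, 1.31 and 1.14 FPKM with semaglutide, against 2.93, 2.61 and 2.97 FPKM in controls (difference -0.73 ± 0.11, adjusted p = 0.0265 by limma). For both sensors the semaglutide libraries were the lowest 3 of the 12 in liver.

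Trim14 encodes an adaptor at mitochondria for signalling from RNA sensors. It was at 3.70, 2.94 and 2.81 FPKM with semaglutide, against 6.35, 6.42 and 5.45 FPKM in controls, and the difference was -0.77 ± 0.11 (limma, adjusted p = 0.0214). Trim14 overlaps Nans on the opposite strand. Whether counting used strand is not given in the sources at hand, and 13 of the 40 members overlap an opposite-strand gene in this way. Nans itself ranged from 3.28 to 5.67 FPKM over the 12 liver libraries and differed by -0.11 ± 0.17 between semaglutide and control (limma, adjusted p = 0.766).

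Mov10, an RNA helicase gene whose product restrains retroviruses and mobile elements, had 2.65, 2.64 and 2.93 FPKM with semaglutide, against 6.36, 4.82 and 5.80 FPKM in controls. The 3 semaglutide values lay close together and below every other liver library. The difference was -0.83 ± 0.15 (limma, adjusted p = 0.0393).

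**Figure D2:**
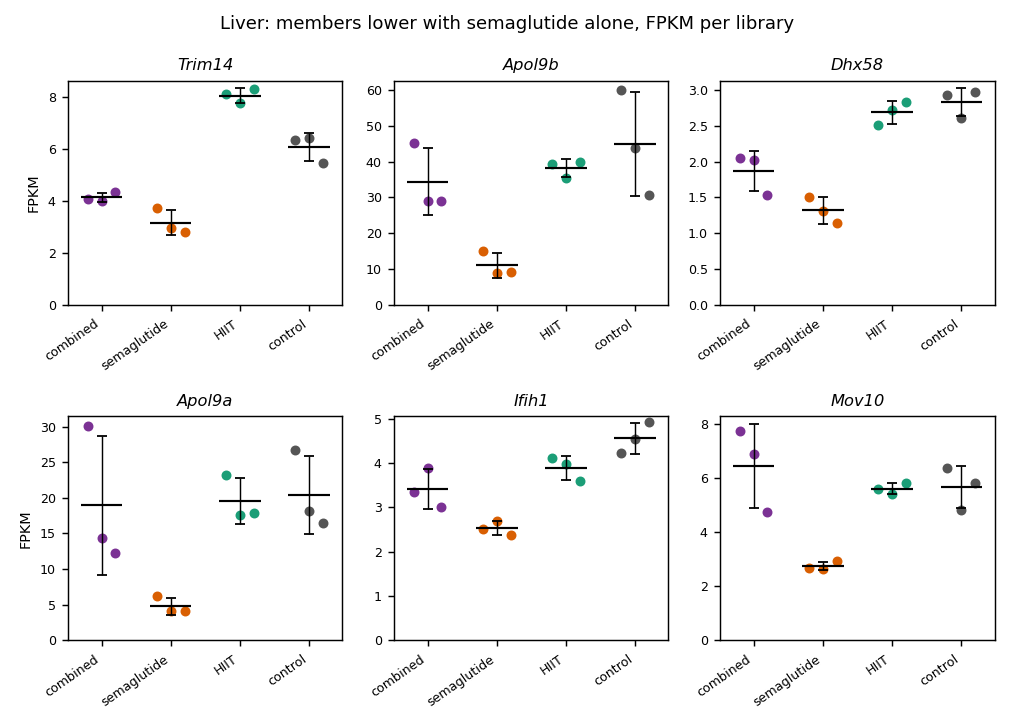
FPKM of the 6 members lower with semaglutide alone in liver, by group; each point is a library, the horizontal bar the mean and the whiskers the SD (n = 3 each). The 3 semaglutide libraries of each gene lie below the 3 controls, and for Trim14 the HIIT libraries (7.74 to 8.28 FPKM) lie above all others.

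These calls rest on few libraries. Without liver control 2, and again without semaglutide 3, 0 members passed, and 2 passed without control 3, without HIIT 2 or without HIIT 3. The differences of the 6 kept their sign each time, for example between -2.15 and -1.68 for Apol9b and between -0.864 and -0.713 for Trim14 when any 1 library was left out.

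Among the transcription factors, Stat2 had 11.4, 8.82 and 9.42 FPKM with semaglutide, against 12.2, 12.4 and 13.5 FPKM in controls, a difference of -0.34 ± 0.10 that did not pass (limma, adjusted p = 0.171). Irf7, the factor that amplifies interferon production, was at 6.0 to 6.46 FPKM with semaglutide, against 6.64 to 16.7 in controls (difference -0.58 ± 0.34, adjusted p = 0.429 by limma). Irf9 was at 4.22 to 7.02 FPKM with semaglutide, against 7.08 to 9.80 in controls (-0.40 ± 0.21). The semaglutide and control libraries did not overlap in these 3, which are among the 17 members apart in this comparison, and 0 of the 3 passed.

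In the ISG15 group, Isg15 itself had 2.28, 2.14 and 2.87 FPKM with semaglutide, against 4.70, 4.41 and 8.71 FPKM in controls, a difference of -0.97 ± 0.24 (limma, adjusted p = 0.106). Herc6, the main ISG15 ligase of the mouse, was at 0.972 to 1.76 FPKM against 1.93 to 3.24 FPKM in controls (-0.66 ± 0.17, adjusted p = 0.114 by limma). Usp18, which removes ISG15 from proteins and dampens the receptor, overlapped between the groups, at 1.05 to 1.77 FPKM with semaglutide against 1.07 to 2.93 in controls. Trim25, a ubiquitin ligase that activates RIG-I and the most abundant gene of this group, had 10.2, 7.90 and 9.81 FPKM with semaglutide, against 9.53, 7.79 and 7.62 FPKM in controls (0.14 ± 0.12). Trim30a and Dtx3l had differences of -0.19 ± 0.26 and 0.20 ± 0.15.

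Zbp1, a sensor of left-handed nucleic acid that can start cell death, had the largest mean difference of all members and did not pass. Its levels were 0.821, 1.68 and 0.698 FPKM with semaglutide, against 2.60, 5.15 and 26.5 FPKM in controls (-2.06 ± 0.58, adjusted p = 0.142 by limma). The value of 26.5 FPKM is from liver control 3, the library with the highest macrophage and neutrophil markers. Eif2ak2, which encodes the RNA-activated kinase PKR, differed by -0.10 ± 0.13.

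Bst2, which encodes tetherin and holds budding virus at the cell surface, had 48.4, 69.1 and 57.1 FPKM with semaglutide, against 62.8, 44.7 and 71.5 FPKM in controls (-0.02 ± 0.27). Ifi27 had 32.8, 66.6 and 45.9 FPKM with semaglutide, against 27.4, 24.9 and 33.1 FPKM in controls, a difference of 0.70 ± 0.34 in the other direction (limma, adjusted p = 0.354). Parp9, which pairs with Dtx3l in antiviral signalling, had 12.6, 11.3 and 11.9 FPKM with semaglutide, against 12.6, 13.1 and 15.4 FPKM in controls (-0.18 ± 0.17). Oasl2, of the oligoadenylate synthetase family, had 0.266, 5.18 and 0.374 FPKM with semaglutide, against 0.573, 0.396 and 1.07 FPKM in controls. Its value of 5.18 FPKM came from semaglutide 2, the library with muscle, adipocyte and B or plasma cell transcripts. A list of 5 markers of plasmacytoid dendritic cells, the main makers of interferon alpha, summed to 333 FPKM there. Of these 330 FPKM were Cox6a2, which muscle also makes, while Siglech was at 0.0485 and Ccr9 at 0.0914 FPKM. Their part in the Oasl2 value was not tested.

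Of the remaining members, Rtp4 (-0.91 ± 0.26), the dynamin-like GTPase gene Mx2 (-0.55 ± 0.16), Xaf1 (-0.85 ± 0.28), Parp14 (-0.56 ± 0.19) and Lgals3bp (-0.44 ± 0.18) were among the 15 with an unadjusted p under 0.05. Their adjusted p ran from 0.142 for Rtp4 to 0.287 for Lgals3bp (limma). Rtp4 overlaps Masp1, a complement gene on the opposite strand, which was itself called lower (-0.80 ± 0.14, adjusted p = 0.0343 by limma). Ifi35, Adar, Ifit3, Helz2 and Ifit1 had differences between -0.35 and 0.02 with unadjusted p above 0.05. By role, 2 of 4 tested sensors were called, 1 of 7 genes of the ISG15 and ubiquitin group, 1 of 5 restriction factors, 2 of 5 other induced genes, and 0 of the transcription factors, synthetases, IFIT and IFI genes and PARP enzymes.

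HIIT alone called 0 of 31 members in liver, as it called 0.0% of all genes (limma). An unadjusted p under 0.05 was found for 6 members, 5 lower and 1 higher, and for 7.22% of all genes in either direction. The median difference was -0.18 against 0.05 for all genes. Without control 3 the members' median was -0.051 against 0.03 for all genes. Zbp1 had 1.75, 0.479 and 1.26 FPKM with HIIT, against 2.60, 5.15 and 26.5 FPKM in controls (-2.02 ± 0.58). Trim14 was the member that lay higher, at 8.11, 7.74 and 8.28 FPKM with HIIT, against 6.35, 6.42 and 5.45 FPKM in controls. Its difference of 0.36 ± 0.11 did not pass (limma, adjusted p = 0.676). Without control 1 the count of called members was 1, Zbp1.

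With combined treatment 0 of 31 members were called against control, where 0.309% of all genes were. The members' median was -0.03 against 0.05 for all genes, with 17 below and 14 above control. The smallest adjusted p of a member was 0.113 (limma), that of Trim14, at 4.06, 3.99 and 4.33 FPKM in the combined group and 6.35, 6.42 and 5.45 FPKM in controls (-0.46 ± 0.11). Dhx58 followed with 2.05, 2.02 and 1.54 FPKM against 2.93, 2.61 and 2.97 FPKM in controls (-0.42 ± 0.11). Ifih1 had 3.35, 3.89 and 3.01 FPKM against 4.22, 4.54 and 4.93 FPKM in controls (-0.33 ± 0.11). For these 3 every combined library lay below every control library, as for 5 of the 31 members and 6.23% of all genes. In either direction the groups were apart in the same 5 members and in 20.1% of all genes. Apol9b, by contrast, overlapped, with 45.3, 29.0 and 29.0 FPKM in the combined group against 30.8 to 59.9 FPKM in controls (-0.35 ± 0.26). Bst2 had 116, 128 and 60.9 FPKM in the combined libraries, against 44.7 to 71.5 FPKM in controls (0.72 ± 0.27, adjusted p = 0.296 by limma). Without the libraries that stand apart 1 member passed, Trim14, and the members' median was 0.0319.

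**Figure D3:**
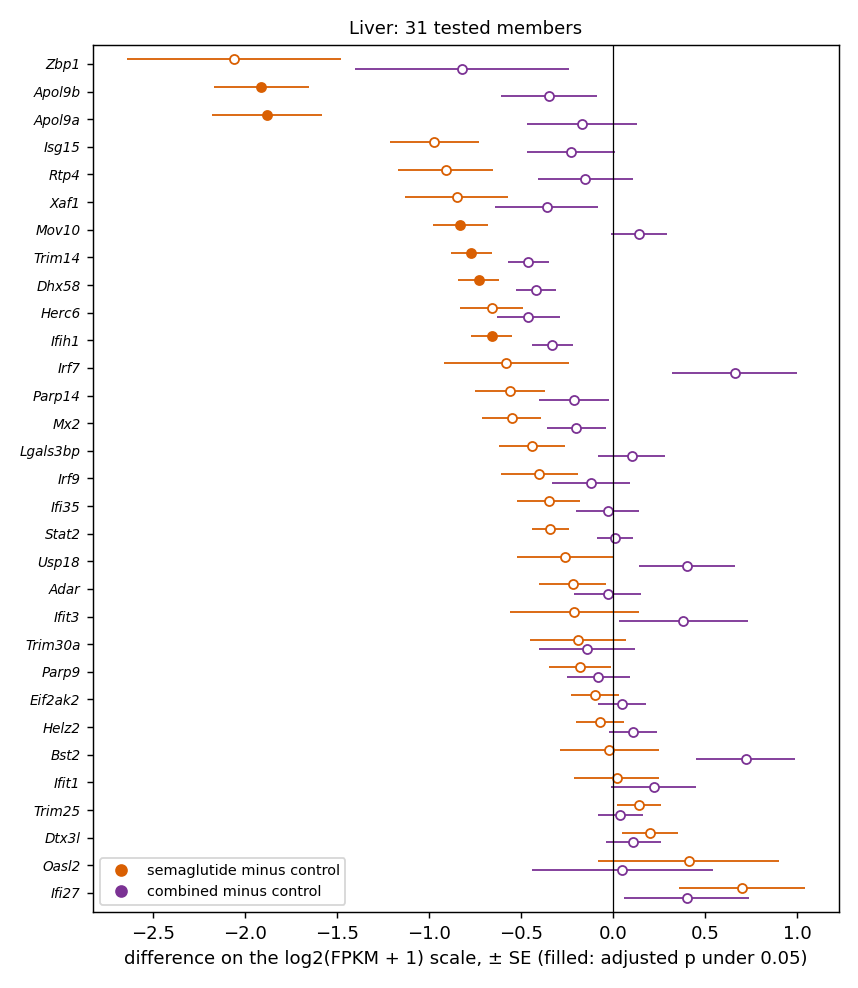
Difference from control on the log2(FPKM + 1) scale for each of the 31 tested members in liver, with semaglutide alone (orange) and with combined treatment (purple); bars are the SE and filled points passed at adjusted p under 0.05. The filled points are the 6 members of the semaglutide group, and the 2 sets of points share the same 3 control libraries.

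Combined treatment was then set against semaglutide alone. The same semaglutide libraries were set against control above, so these comparisons are not independent. limma called 0 members and 0.0% of all genes, while 27 of the 31 members were higher in the combined group, with a median of 0.32 against -0.03 for all genes. All 13 members with an unadjusted p under 0.05 were higher, where 7.85% of all genes had such a p in either direction. Mov10 had 7.73, 6.89 and 4.72 FPKM in the combined group, against 2.65, 2.64 and 2.93 FPKM with semaglutide alone (0.97 ± 0.15, adjusted p = 0.18 by limma). Apol9a had 30.1, 14.4 and 12.3 FPKM against 6.17, 4.02 and 4.09 FPKM with semaglutide alone (1.71 ± 0.30, adjusted p = 0.181 by limma). Apol9b differed by 1.56 ± 0.26 with the same adjusted p. Irf7 had 25.5, 16.2 and 9.77 FPKM in the combined group, against 6.46, 6.0 and 6.20 FPKM with semaglutide alone (1.23 ± 0.34, adjusted p = 0.43 by limma). The groups did not overlap in these 4 genes, which are among 14 of the 31 members with every combined library above every semaglutide library, against 8.45% of all genes. Without the libraries that stand apart 2 members passed, Apol9b and Xaf1, and with the replicate number as a block 1 did, Apol9a.

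Against HIIT alone, combined treatment lowered 1 member, Trim14, where 0.116% of all genes were called and 0.0676% called lower. The set as a whole leaned the other way. Of the 31 members 25 lay above HIIT alone, with a median difference of 0.18. Of all genes 53.4% lay above it, with a median of 0.02. In 9 members every combined library lay above every HIIT library, against 17.3% of all genes. In 2 members every combined library lay below every HIIT library, against 14.5% of all genes. Trim14 had 4.06, 3.99 and 4.33 FPKM in the combined group, against 8.11, 7.74 and 8.28 FPKM with HIIT alone (-0.82 ± 0.11, adjusted p = 0.0209 by limma). Trim14 was the member whose 4 groups were wholly apart in liver, with HIIT highest, then control, then combined treatment, then semaglutide alone. The share of all genes with 4 groups apart was not computed. The count of called members was 0 when any 1 of the 6 libraries of these groups was left out. It was 4 without the libraries that stand apart, when Lgals3bp, Stat2 and Zbp1 were also called, higher. With all libraries in the fit, Stat2 had 12.6, 13.3 and 12.6 FPKM in the combined group, against 10.3, 9.51 and 10.2 FPKM with HIIT alone (0.33 ± 0.10, adjusted p = 0.217 by limma).

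The interaction asks whether semaglutide had another effect in trained than in sedentary mice, as combined minus HIIT minus semaglutide plus control. It uses the same semaglutide and control libraries again. limma called 0 of 31 members and 0.00966% of all genes. Of the members 27 lay above 0, with a median of 0.52, while 39.7% of all genes did, with a median of -0.08. All 15 members with an unadjusted p under 0.05 were above 0, where 8.61% of all genes had such a p in either direction. The smallest p values belonged to Apol9b (1.74 ± 0.37), Stat2 (0.67 ± 0.15) and Mov10 (0.98 ± 0.21), each with an adjusted p of 0.396 by limma. Zbp1 had the largest interaction, 3.26 ± 0.82 (adjusted p = 0.42 by limma). Trim14 was near 0, at -0.05 ± 0.15. So was Oasl2 relative to its error, at -0.17 ± 0.69. The members' median was 0.524 without the libraries that stand apart.

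Over both training states, 6 libraries with semaglutide were set against 6 without. This main effect called 5 of the 31 members, all lower, where 2.01% of all genes were called and 1.02% called lower. They were Trim14 (-0.80 ± 0.07, adjusted p = 0.00123), Dhx58 (-0.55 ± 0.08, 0.0104), Apol9b (-1.04 ± 0.19, 0.0218), Ifih1 (-0.40 ± 0.08, 0.0246) and Apol9a (-1.01 ± 0.21, 0.0404), with limma's adjusted p after each difference. For Trim14 and Dhx58 the 6 semaglutide libraries lay below the 6 others, as in 1.2% of all genes, with means of 3.64 against 7.06 FPKM for Trim14 and 1.59 against 2.77 FPKM for Dhx58. The members' median was -0.02, against 0.06 for all genes. Without the libraries that stand apart the count was 7, which held the same 5 and added Herc6 and Xaf1, and the median was -0.109. Leaving out 1 library at a time gave 2 to 6. Mov10 was not among the 5 (-0.34 ± 0.11, adjusted p = 0.131).

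For the other main effect, 6 trained libraries were set against 6 untrained, and 0 members and 0.0% of all genes were called (limma). At an unadjusted p under 0.05 there were 5 members, all higher, and 7.16% of all genes in either direction. The smallest adjusted p was 0.574 by limma, for Mov10 (6.02 against 4.20 FPKM in the untrained libraries, 0.48 ± 0.11). The members' median was 0.07, and 0.151 without the libraries that stand apart, when 0 members were again called.

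Looking across single libraries, 9 of 31 members had their 3 semaglutide libraries below all 9 other liver libraries, against 1.66% of the genes tested. They were Isg15, Irf7, Dhx58, Ifih1, Rtp4, Trim14, Apol9a, Apol9b and Mov10. The 3 semaglutide libraries are those of the comparisons above, so this count is not separate from them. Relative to each gene's mean over the 12 liver libraries, the median of the members was -0.36, -0.17 and -0.43 in the semaglutide libraries, against 0.10, -0.05 and 0.35 in the control libraries. It was 0.27, 0.08 and -0.04 in the combined libraries and -0.08, -0.06 and -0.05 in the HIIT libraries. The semaglutide library at -0.17 is semaglutide 2, in which the median of all genes was 0.21. Semaglutide 3 was the lowest library for 14 members and control 3 the highest for 12. The matching shares of all genes were not computed.

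**Figure D4:**
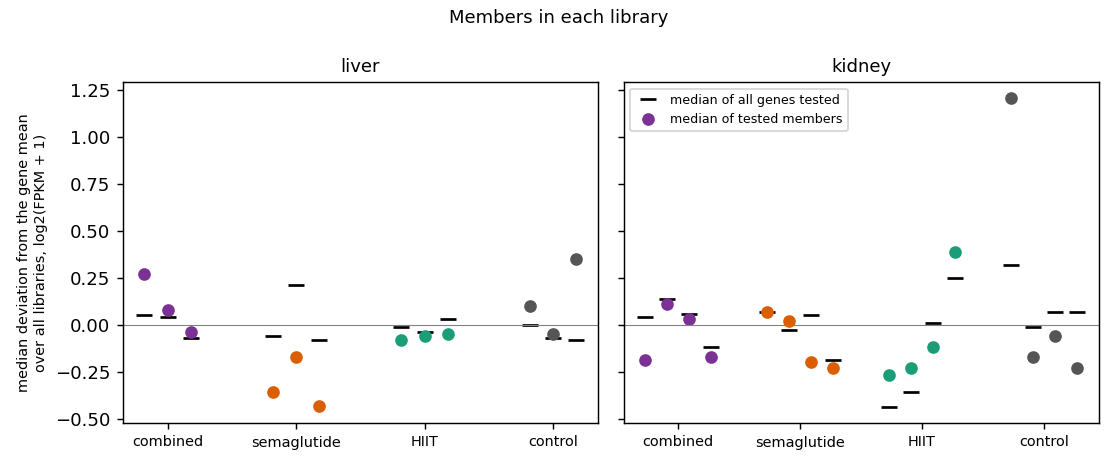
Median deviation of the tested members from each gene's mean over all libraries of the tissue, on the log2(FPKM + 1) scale, 1 point per library, with the same median over all genes tested as a black dash. In liver the 3 semaglutide libraries are the lowest points (-0.17 to -0.43), and in kidney control 1 stands at 1.21.

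In kidney, limma called 0 of 28 members in each of the 8 comparisons. The shares of all genes called were 0.0% for HIIT, 0.00866% for semaglutide and 0.0% for combined treatment against control. They were 0.00866% for combined treatment against HIIT, 0.00866% against semaglutide, 0.0% for the interaction, 0.0173% for the semaglutide main effect and 0.0% for the training main effect. At an unadjusted p under 0.05 there was 1 member over all 8, Eif2ak2, in semaglutide against control (-0.47 ± 0.22), where 3.32% of all genes had such a p. The medians of the members against control were -0.18 with HIIT, -0.24 with semaglutide and -0.24 with combined treatment, where those of all genes were -0.26, -0.14 and -0.09. With the libraries scaled by median ratios, the medians of all genes were -0.009, 0.011 and 0.004.

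The kidney medians followed 1 library. Control 1 was the highest of the 16 for 22 of 28 members, and its median deviation was 1.21, against -0.27 to 0.39 in the other 15. Over all genes its median deviation was 0.32, against -0.44 to 0.25 in the other 15. The share of all genes highest in control 1 was not computed, so the 22 cannot be read as particular to the members. Without control 1 the 3 medians against control were 0.0543, 0.0647 and 0.115. Lgals3bp, which encodes a secreted glycoprotein, had 22.8, 23.6, 25.5 and 17.4 FPKM with combined treatment, 35.8, 21.1, 26.2 and 22.1 with semaglutide and 21.9, 17.3, 23.5 and 29.2 with HIIT. It had 135, 20.9, 24.9 and 22.8 FPKM in the 4 control libraries, with 135 in control 1. Bst2 had 46.6 FPKM in control 1 and 6.24 to 16.3 FPKM in the other 15 libraries. Parp9 had 12.6 FPKM there and 1.16 to 5.81 elsewhere, Irf9 14.4 and 2.78 to 6.99, Oasl2 8.18 and 0.969 to 2.49, and Ifih1 5.08 and 0.901 to 2.99. Zbp1 had 15.8 FPKM in control 1 and at most 1.04 in any other kidney library.

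Trim25 and Ifi27, the most abundant members of their roles in kidney, were less tied to control 1. Trim25 had 10.8 FPKM there and 3.62 to 11 elsewhere, and Ifi27 had 48.4 FPKM there and 21.9 to 37.9 elsewhere. Mov10, called in liver, had in kidney 4.68, 3.54, 5.80 and 5.75 FPKM with semaglutide, against 5.47, 3.95, 3.98 and 4.05 FPKM in controls, and the groups overlapped. Rsad2, Cmpk2 and Ifit2, too low for a test in liver, were tested in kidney, at 2.35 to 6.23, 2.71 to 4.49 and 1.39 to 11.7 FPKM. Apol9a and Apol9b were at most 0.439 and 1.28 FPKM in kidney, where liver libraries held 4.02 to 30.1 and 8.95 to 59.9. The tables of the tissues were made separately, so that difference in level carries no test.

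**Figure D5:**
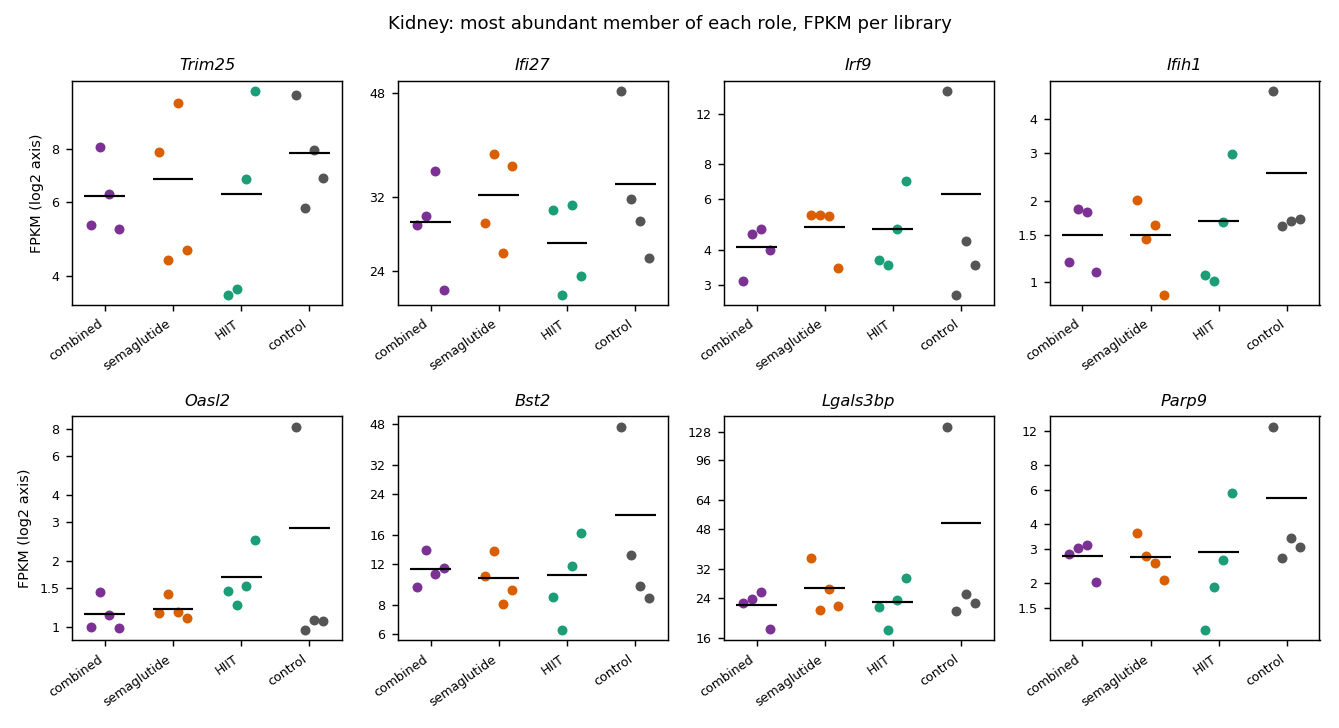
FPKM per kidney library, on a log2 axis, of the most abundant member of each of the 8 roles, by group; each point is a library and the horizontal bar is the group mean (n = 4 each). Control 1 is the top point of the control group in every panel, for example 135 FPKM for Lgals3bp and 46.6 for Bst2.

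Whether the effect differed between the tissues was tested as the liver difference minus the kidney difference for 9505 genes tested in both, 24 of them members. The test treats liver and kidney libraries as independent, and the labels used here do not say whether both came from the same mice. For HIIT 0 members and 0.021% of all genes passed, for semaglutide 0 members and 0.0%, and for combined treatment 0 members and 0.0316%. At an unadjusted p under 0.05 there were 0, 1 and 1 members, and 1330, 816 and 472 of the 9505 genes. In each of the 3, 0 members passed without the libraries that stand apart. The smallest adjusted p was 0.203, for Mov10 with semaglutide (liver minus kidney -0.97 ± 0.23, limma estimates with Satterthwaite degrees of freedom). Apol9a, Apol9b, Trim14 and Dhx58 were not tested in kidney, so the comparison leaves out 4 of the 6 genes lower in liver.

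The rest of the pathway was read from further lists. Transcripts of the 18 interferon alpha, beta and related ligand genes were nearly absent: 15 were listed at 0 in every liver library and 12 in every kidney library, and the highest value was 0.0497 FPKM in liver (Ifnk) and 0.106 FPKM in kidney (Ifna6). Ifng, the interferon gamma gene, reached 0.137 FPKM in liver and 0.525 FPKM in kidney. Of 7 tested receptor and kinase genes, 0 passed in liver with semaglutide against control, and 0 had an unadjusted p under 0.05 (limma). Ifnar2 averaged 35.2 FPKM with semaglutide and 37.0 in controls, Ifnar1 6.18 and 6.25, and the 2 smallest p belonged to Ifngr1 (0.50 ± 0.45) and Il10rb (0.34 ± 0.38).

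Of 10 tested upstream sensors and adaptors 0 passed, with 2 at an unadjusted p under 0.05 (limma). These were Ikbke, a kinase that activates IRF3, at 2.72 FPKM with semaglutide against 8.89 in controls (-1.22 ± 0.41), and Rigi, the RIG-I gene, at 3.07 against 4.39 (-0.40 ± 0.18). Among 7 tested factors and brakes, 1 was called lower. Nmi, which encodes an interferon-induced signalling partner, averaged 7.42 FPKM with semaglutide and 13.7 in controls (-0.80 ± 0.10, adjusted p = 0.0213 by limma). It was called again without the libraries that stand apart (-0.812). Irf1 averaged 11.1 and 16.9 FPKM (-0.56 ± 0.15, adjusted p = 0.137 by limma).

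Of 47 other interferon-induced genes tested in liver, 3 were called lower with semaglutide and 0 higher, where 0.464% of all genes were called lower. Ube2l6, the conjugating enzyme for ISG15, averaged 20.9 FPKM with semaglutide and 41.3 in controls (-0.93 ± 0.15, adjusted p = 0.0265 by limma). The ADP-ribosyltransferase genes Parp12 (6.37 against 10.6 FPKM, -0.66 ± 0.11) and Parp10 (4.80 against 9.37 FPKM, -0.81 ± 0.15) had adjusted p of 0.0274 and 0.0463. In this list 32 of 47 lay below control, with a median of -0.32, against 36.2% of all genes and a median of 0.09. Without the libraries that stand apart Parp12 was called, while Ube2l6 and Parp10 had adjusted p of 0.057 and 0.0519 (limma), and the list's median was -0.29. Over 13 refits with libraries left out, Parp10 was not called in 12, Ube2l6 in 8 and Parp12 in 7. In the semaglutide main effect Ube2l6, Parp12 and Zc3hav1 were called lower, and Tor3a was called higher, at 3.91 FPKM in the 6 semaglutide libraries against 2.34 FPKM in the 6 others (0.57 ± 0.09, adjusted p = 0.0143 by limma). Nmi was called lower in that comparison too (-0.48 ± 0.07, adjusted p = 0.0104 by limma). Over the 13 refits of this main effect, Ube2l6 and Zc3hav1 were each not called in 9 and Parp12 in 3. Tor3a and Nmi were called in all 13. In kidney 0 genes of these lists were called in the 3 comparisons with control.

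Genes driven mainly by interferon gamma lay lower than control in all 18 tested cases with semaglutide (median -0.67) and in all 18 with HIIT (median -0.61), comparisons that share the control libraries. They split 9 and 9 with combined treatment (median -0.01). Of all genes 36.2% lay below control with semaglutide, 39.9% with HIIT and 39.2% with combined treatment. These medians moved with control 3, the library with 936 FPKM of macrophage, 343 of neutrophil and 4.93 of T or NK cell markers. Without it the median was -0.49 with semaglutide, with 15 of 17 tested genes below control, and -0.24 with HIIT, with 14 of 17 below. With combined treatment 2 of 17 were then below control and the median was 0.31. Of them 1 was called, Gbp11, a guanylate-binding protein gene, at 1.17 FPKM with semaglutide against 3.34 in controls (-0.99 ± 0.16, adjusted p = 0.0272 by limma). Gbp11 was also the gene called in the liver interaction (2.1 ± 0.23, adjusted p = 0.0194 by limma), with 4.48 FPKM in the combined group against 1.5 with HIIT alone. It was called in both without the libraries that stand apart (-1.12 and 2.24). Over 13 refits with libraries left out, the interaction was not called in 7 (limma, adjusted p up to 0.117). The difference of semaglutide from control was not called in 5 (limma, adjusted p up to 0.102).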

How the data were processed

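Per the labels' protocols, stranded libraries of polyadenylated RNA were sequenced in pairs. Named in the submitters' processing notes are Trimmomatic 0.36, STAR 2.7.9a, featureCounts 2.0.1, StringTie 2.1.4 and the build GRCm39, with no role or order. Values are FPKM as deposited by the authors, and whole reads could not be recovered from them (28.6 to 36.6% of low liver values within 0.05 of whole numbers of fragments at the best step). Liver transcripts were summed by gene name. Each tissue's 4 groups were fitted together with limma 3.58.1 (R 4.3.3, intensity trend, no block) on log2(FPKM + 1). Groups came from the sample labels, and replicate numbers were not used to pair samples in the main fit. Same-number correlations ran from -0.314 to 0.157 in liver and from -0.466 to 0.327 in kidney. Their medians were -0.085 in liver and 0.079 in kidney, against 0.028 and -0.018 for other numbers. These values do not settle whether the numbers pair samples. The fit was tested on simulated data. Genes overlapping members were looked up in GENCODE M21.

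Members and lists were chosen with earlier results of these data known. Library values are given for called members and for the most abundant member of each role. From other lists the called genes are named, up to 6, or the 2 with the smallest p. Promoters shown are those with a match among members of smallest p in semaglutide against control. Alternatives were a pseudocount of 0.1, no filter, 2 scalings, the replicate block, only the groups compared, transcripts one by one, no intensity trend, each library left out, and the libraries that stand apart left out.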

Additional observations from a re-analysis of the deposited data

Results flagged for a closer look

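In kidney, control 1 lay far from the other 3 control libraries for 29 members, all of them high, by Dixon's criterion for a sample far from its group. Among members given library by library, its values were 14.4 FPKM for Irf9, 15.8 for Zbp1, 5.08 for Ifih1, 8.18 for Oasl2, 12.6 for Parp9, 46.6 for Bst2, 135 for Lgals3bp and 5.47 for Mov10. A further 5 kidney libraries were far from their group for 1 to 4 members. Semaglutide 4 was low for Irf9 at 3.44 FPKM, and semaglutide 1 was high for Zbp1 at 0.181 FPKM. HIIT 4 was high for Dhx58 (0.614 FPKM), Rtp4 (2.75), Parp14 (2.33) and Mx2 (0.763), HIIT 3 for Ifi35 (8.93) and combined 4 for Oas3 (0.0468). Chance alone flags about 5% of groups, and 37 of 160 member and group pairs were flagged. The share flagged over all genes was not computed. Macrophage markers summed to 3610 FPKM in kidney control 1 against 30.2 to 115 in the other 15 libraries, and markers of B or plasma cells, neutrophils and T or NK cells were also highest there. Their part in these values was not tested.

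In liver, the interaction of training and drug for Gbp11 was 2.1 ± 0.23 (limma, adjusted p = 0.0194), the gene called in that test. It was not called in 7 of 13 refits with libraries left out (limma, adjusted p up to 0.117).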

How the results depend on the processing

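Over the alternatives, 323 of 360 recomputed counts of called members stayed within 1.5 times the count reported, and 37 moved. Most of the 360 belong to comparisons with a reported count of 0, so this total says little about the called members. Where members were called, 11 of 21 counts stayed for semaglutide against control. For combined treatment against HIIT 10 of 21 stayed, and for the semaglutide main effect 10 of 20. For semaglutide against control in liver (6 members), the count was 2 without a filter, 2 with scaling without mitochondrial transcripts, 2 with the replicate block, 0 with only the groups compared, 0 with transcripts one by one, and 0 to 7 with 1 library left out. For combined treatment against HIIT (1 member), it was 0 with median-ratio scaling, 0 with the replicate block, 2 with only the groups compared, 4 without the libraries that stand apart, 0 with transcripts one by one, and 0 to 1 with 1 library left out. For the semaglutide main effect (5 members), it was 3 without a filter, 3 with scaling without mitochondrial transcripts, 2 with transcripts one by one, and 2 to 6 with 1 library left out. For combined treatment against semaglutide it was 1 with the replicate block, 2 without the libraries that stand apart and 0 to 1 with 1 library left out. For combined treatment against control it was 1 without those libraries and 0 to 1 with 1 left out, and for HIIT against control 0 to 1. The replicate block moved no other count by over 1.5 times. It left Apol9a and Apol9b of the 6. In liver 2 of 18 same-number pairs correlated over 0.1, and in kidney 9 of 24. The cause of these moves was not tested. Of 247 values of called members recomputed, 149 stayed past the threshold, 98 did not, and 0 changed sign. With transcripts one by one that value is the transcript of smallest p, -2.04 for Mov10 with semaglutide, where its other 2 tested transcripts lay higher, by 0.72 and 0.66. Adjusted p over the alternatives ran from 0.0116 to 0.234 for Apol9b and from 0.0155 to 0.293 for Trim14 with semaglutide against control. Medians of all genes moved by more than 0.1 with scaling in kidney, with -0.009 after median-ratio scaling against -0.257 as deposited for HIIT against control, where the members' median was 0.0239 after that scaling. In liver the members' median with semaglutide was -0.531 with median-ratio scaling and -0.287 with scaling without mitochondrial transcripts. The median of all genes there moved too, from 0.087 as deposited to -0.012 and 0.204. Depth is unknown, and precision rests on 3 or 4 libraries a group. The recomputed values of genes outside the set were chosen after seeing the data.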
